A study of Mus musculus with 16 samples.

Results

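Ribosome-protected fragments (RPFs, also called footprints: the stretches of mRNA shielded by a ribosome and sequenced after nuclease digestion) were compared between Nat1+/- clones and wild-type (WT) RF8 cells. RF8 is a mouse embryonic stem cell line, grown here with LIF on gelatin. The comparison used 5 of the 16 libraries in the series, from the 3 Nat1+/- clones A7, B4 and C1 (numbered 1, 2 and 3) and 2 WT cultures, WTex1 and WTex2 (numbered 1 and 2). It covered 13110 of the 21977 genes in the table, those with a mean of at least 10 normalised reads over all 8 RPF libraries. The other 3 RPF libraries came from Nat1-/- cultures (B12, B2 and C3), which entered the fit only to share its estimate of the spread. The Nat1+/- cultures are named as separate clones, while the WT cultures are replicates of 1 line, so the spread within WT holds no difference between clones.

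Nat1 is an earlier name for Eif4g2, known too as DAP5 or p97, and is not the N-acetyltransferase gene that now carries the symbol. It is a relative of the translation initiation scaffold eIF4G that lacks the part which binds the cap-binding protein eIF4E, and it is known to support initiation on a subset of mRNAs. Mouse embryonic stem cells without it are known to self-renew but to differentiate poorly. A footprint count reflects both how much of an mRNA is present and how densely ribosomes occupy it. The same cultures also gave total RNA libraries, which are set beside the footprints where they bear on a gene.

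The 5 RPF libraries held 17.8 to 23.8 M recovered reads (M, mega-reads), with WTex1 the deepest. Levels are given as normalised reads, that is, reads divided by a size factor per library; they are not divided by gene length and compare only the same gene between libraries. Differences are Nat1+/- minus WT on the log2(value + 1) scale with their standard error (SE), which understates changes of genes with low levels. A gene was called when its limma p, adjusted by Benjamini-Hochberg over the 13110 genes, was below 0.05. The spread between replicates exceeded counting noise, and chi-square over its degrees of freedom was 20.2 to 38.1 among the Nat1+/- clones and 31.0 between the WT cultures. Their log2 levels correlated across genes at r = 0.970 to 0.987. The cell type was checked on 8 stem cell markers, which were all abundant in the 5 cultures. Pou5f1, the core pluripotency factor Oct4, had 14984, 11136 and 14961 normalised reads in Nat1+/- cells and 17038 and 16894 in WT cells (log2 difference -0.32 ± 0.21, adjusted p = 0.318).

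Footprints of the targeted gene were lower in every Nat1+/- clone. Eif4g2, on chromosome 7, had 10261, 7608 and 7275 normalised reads in A7, B4 and C1, against 17666 and 13862 in WTex1 and WTex2. The groups did not overlap, and the Nat1+/- mean of 8381 ± 1636 (SD, n = 3) was 53.2% of the WT mean of 15764 ± 2690 (SD, n = 2). The limma log2 difference was -0.92 ± 0.19 (adjusted p = 0.0239). A two-sided exact permutation test gave p = 0.2, the smallest that the 10 possible assignments allow. Its total RNA was lower by 1.52 on the log2 scale (adjusted p = 0.0277), at 33.9% of WT. The total RNA means were 12700 ± 2390 (SD, n = 3) in Nat1+/- cells and 37458 ± 14812 (SD, n = 2) in WT cells. The WT cultures thus lay far apart in total RNA. The Nat1-/- cultures averaged 1042 ± 105 footprints (SD, n = 3).

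Across all tested genes, 701 were higher in Nat1+/- cells (5.35%) and 673 were lower (5.13%), and 4055 had an unadjusted p below 0.05. Of the called genes, 337 were higher and 377 lower by at least 2-fold. Changes of at least 8-fold were found for 3 higher and 53 lower genes. No called gene had overlapping groups. Over all tested genes the 3 Nat1+/- values lay above both WT values for 27.3% of genes and below both for 28.1%, and the median log2 difference was -0.01. The calls rested on each WT culture. With WTex1 left out, 0 genes passed with limma (1822 had an unadjusted p below 0.05), and with WTex2 left out, 15 higher and 8 lower genes did. In these fits the remaining WT culture is assumed to vary as much as the other genotypes. Without A7 the counts were 47 higher and 37 lower, without C1 214 and 175, and without B4 554 and 643. Each of the 143 called genes named by the selection rule lost its call without at least 1 culture. None changed sign, which could not happen here, as no called gene had overlapping groups. For all 143 the log2 difference moved by at most 1.5 times when any 1 culture was left out.

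**Figure D1:**
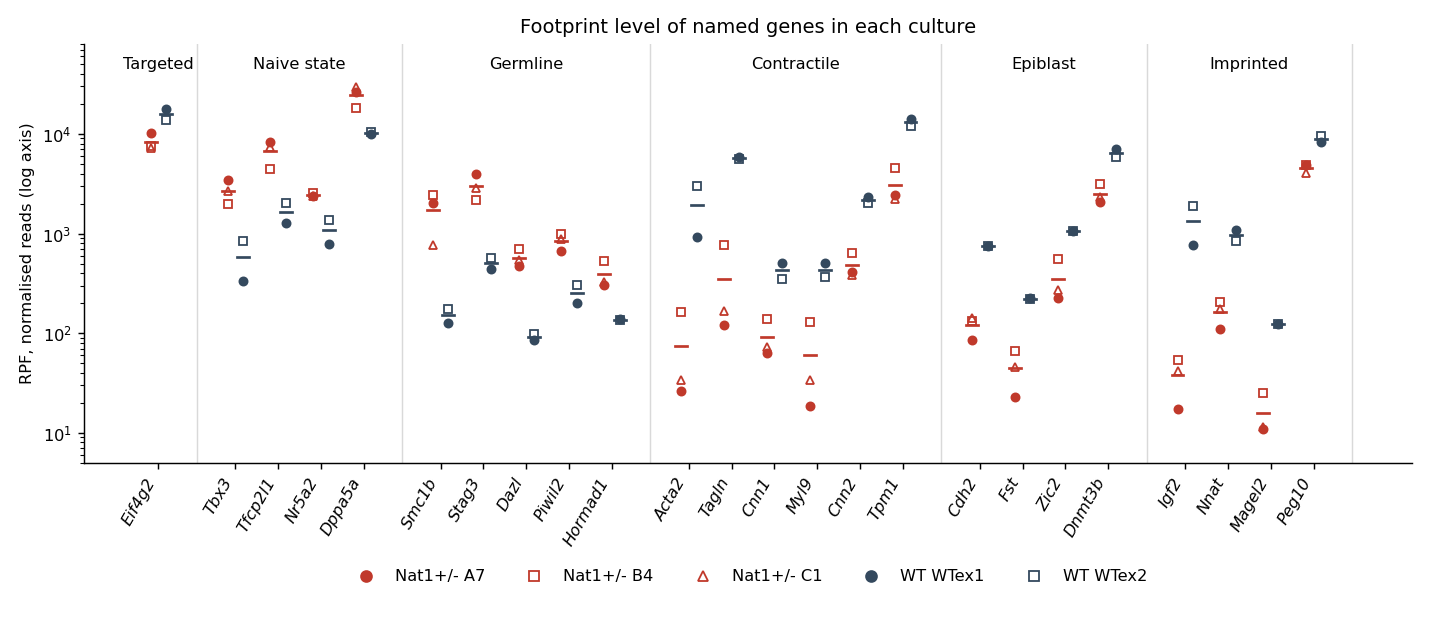
Footprint levels of named genes in each culture, in normalised reads on a log axis, with the Nat1+/- clones (red, left of each pair) and the WT cultures (dark blue, right of each pair); horizontal bars are group means. All plotted genes were picked from called genes, so their direction and the lack of overlap follow from the choice. The plotted naive state and germline genes lie higher in the 3 Nat1+/- clones, and the plotted contractile, epiblast and imprinted genes lie lower. Other members of these lists were not called. Acta2 spans 26.0 to 164 in Nat1+/- cells and 928 to 2976 in WT cells.

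The widest increases included meiotic cohesin genes. Smc1b, the meiosis-specific SMC1 subunit of cohesin, had 2021, 2418 and 764 normalised reads in Nat1+/- cells, against 127 and 175 in WT cells. Its log2 difference was 3.37 ± 0.53 (adjusted p = 0.0135), and its total RNA differed by 3.52. Stag3, the meiotic STAG subunit of cohesin, had 3934, 2172 and 2840 reads in Nat1+/- cells and 441 and 567 in WT cells (2.53 ± 0.34, adjusted p = 0.0082). All 3 clones stood several-fold above both WT cultures for each of these genes. Hal, histidine ammonia-lyase, read 145, 74.9 and 66.1 in Nat1+/- cells against 3.11 and 10.7 in WT cells (3.71 ± 0.51, adjusted p = 0.0082), the largest increase by the naming rule. Dnah8, an axonemal dynein heavy chain, rose by 2.66 ± 0.56 and Kank4 by 2.50 ± 0.24. Nkx6-3, a homeobox gene, rose by 2.96 ± 0.70, and the zinc finger gene Zfp640 by 2.45 ± 0.49. Ppp1r14d, an inhibitor subunit of protein phosphatase 1, rose by 2.44 ± 0.34. The clones were not equal for Nkx6-3, with 55.3, 11.1 and 78.7 reads in A7, B4 and C1, against 3.88 and 3.87 in WT cells.

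Of 20 germline genes tested, 8 were higher (40% against 5.35% of all genes) and 0 were lower, with a median log2 difference of 1.21 against -0.01 over all genes. Germline genes encode proteins of meiosis and of transposon silencing by piRNAs, and in embryonic stem cells many are kept at low levels by promoter DNA methylation and by the repressor complex PRC1.6. Its MGA and MAX subunits are known to bind the E-box CACGTG and its E2F6 subunit a sequence of the kind GGCGGGAA. Among the 6 called members with a promoter window in the RefSeq table (300 bases, 250 before to 50 after the gene start, GRCm38.p6), 5 held CACGTG, as did 11 of all 16 listed members with a window. The E-box, which reads the same on either strand, was present in 7.15% of all 32851 promoter windows. Here and below, a gene counts if any of its windows holds the motif, while shares of all windows count each window. GGCGGGAA, searched on both strands, was present in 2 of the 6 called and 3 of the 16 listed members, against 2.19% of all windows. These are matches of letters and not measured binding. Since 11 of the 16 listed members held the E-box, it did not mark the called ones alone. The stretches around the E-box are shown for the 5 called members that held it. They lay at chr1:166238915-166238994 for Mael (minus strand), chr6:49395437-49395536 for Stk31, chr3:40708731-40708830 for Slc25a31, chr3:95559573-95559672 for Hormad1 and chr15:88982744-88982800 for Mov10l1 (these 4, plus strand). They read, 5′ to 3′ in the direction of the gene with the E-box in capitals:
Mael: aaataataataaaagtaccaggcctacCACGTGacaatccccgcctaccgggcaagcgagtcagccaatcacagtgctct
Stk31: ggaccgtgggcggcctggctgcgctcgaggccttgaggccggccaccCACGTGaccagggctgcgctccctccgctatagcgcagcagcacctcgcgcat
Slc25a31: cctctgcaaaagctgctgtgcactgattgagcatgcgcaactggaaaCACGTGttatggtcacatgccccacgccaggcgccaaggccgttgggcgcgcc
Hormad1: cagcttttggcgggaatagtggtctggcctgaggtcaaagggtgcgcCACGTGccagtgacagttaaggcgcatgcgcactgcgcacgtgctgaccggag
Mov10l1: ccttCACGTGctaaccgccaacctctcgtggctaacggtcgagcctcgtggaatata

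Stk31, Slc25a31 and Mov10l1 were named after their values were seen, for these matches. The Hormad1 stretch also holds the E2F6 element and a further E-box, both in lower case. Dazl had a window without CACGTG, and Piwil2 and Tex11 are named only. Dazl, an RNA-binding protein required for germ cell development, had 474, 696 and 536 normalised reads in Nat1+/- cells, against 85.5 and 97.8 in WT cells (2.61 ± 0.41, adjusted p = 0.0135). Piwil2, which binds piRNAs, had 660, 995 and 880 in Nat1+/- cells and 200 and 306 in WT cells (1.75 ± 0.24, adjusted p = 0.0082). Hormad1, a protein of the meiotic chromosome axis, had 301, 534 and 330 in Nat1+/- cells and 138 and 136 in WT cells (1.45 ± 0.24, adjusted p = 0.0149). For each of these genes the lowest clone lay above the higher WT culture, and B4 was the highest clone. Mael, a piRNA pathway protein, rose by 1.67 ± 0.31. The germline RNA differed likewise, with a median of 1.38 in total RNA. There, 9 of 19 members were higher, against 4.6% of all genes tested in total RNA. Summed over the list, footprints were 5681, 11734 and 7954 in Nat1+/- cells and 3497 and 4377 in WT cells. Without WTex2 the list kept 1 call and without WTex1 none, with medians of 1.30 and 0.90.

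Naive pluripotency genes also stood higher. These transcription factors and their targets mark the ground state of embryonic stem cells that LIF sustains. Of 21 tested, 6 were called higher, against 5.35% of all genes, and 1 lower, against 5.13%, and the median log2 difference was 0.59. Tfcp2l1, a LIF-responsive naive factor, had 8274, 4495 and 7404 normalised reads in Nat1+/- cells, against 1267 and 2042 in WT cells (2.02 ± 0.28, adjusted p = 0.0082). Tbx3, a T-box factor of the same network, had 3415, 1990 and 2646 in Nat1+/- cells and 336 and 834 in WT cells (2.30 ± 0.34, adjusted p = 0.0103). B4 was the lowest clone for both, and all clones exceeded both WT cultures. Nr5a2, a nuclear receptor, rose by 1.23 ± 0.21 and Dppa5a, an RNA-binding protein abundant in the naive state, by 1.23 ± 0.21. Their total RNA differed by 1.28 for Tfcp2l1, 1.56 for Tbx3, 1.01 for Nr5a2 and 1.47 for Dppa5a. Without WTex1 the list's median was 0.24 with 0 calls. Tfcp2l1 and Nr5a2 lie on chromosome 1, whose genes stood higher as a whole, as described further on. With the chromosome medians subtracted they still differed by 1.64 and 0.85.

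Of 14 general pluripotency genes, Sox2 (0.71 ± 0.18, adjusted p = 0.0409) was the 1 call, a share near the 5.35% of all genes. Their median was -0.04, with 4 members wholly above and 3 wholly below WT. Over all genes 27.3% lay wholly above and 28.1% wholly below, so neither count stood out. Of 10 genes of the LIF receptor and STAT3 pathway, 2 were higher. Socs3, the feedback inhibitor induced by STAT3, had 2345, 2011 and 2912 normalised reads in Nat1+/- cells against 1058 and 1079 in WT cells (1.16 ± 0.21, adjusted p = 0.0177). Lifr, a subunit of the LIF receptor, had 2472, 2126 and 2646 in Nat1+/- cells and 1125 and 1333 in WT cells (0.97 ± 0.21, adjusted p = 0.0254). Neither gene's groups overlapped. Among 13 genes of DNA methylation, the demethylating enzyme Tet1 rose by 1.35 ± 0.28 and the de novo methyltransferase Dnmt3b fell by 1.39 ± 0.26 on the log2 scale.

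Genes of the formative and primed epiblast, the state that follows naive pluripotency, lay lower. Of 17 tested, 6 were lower, against 5.13% of all genes, and 0 higher, with a median of -0.81. All 3 Nat1+/- values lay below both WT values for 11 of them, against 28.1% of all genes. Cdh2, N-cadherin, had 84.6, 133 and 143 normalised reads in Nat1+/- cells, against 749 and 743 in WT cells (-2.66 ± 0.32, adjusted p = 0.00642). Fst, the activin antagonist follistatin, had 22.8, 65.8 and 46.2 in Nat1+/- cells and 225 and 220 in WT cells (-2.41 ± 0.38, adjusted p = 0.0135). The WT cultures were close to each other for these genes, and the clones were spread below them. Zic2 fell by 1.69 ± 0.36 on the log2 scale. Dnmt3b, counted here too, had 2063, 3109 and 2312 reads in Nat1+/- cells and 7030 and 5884 in WT cells.

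Lists of lineage markers differed from one another. Over all tested genes, 5.35% were called higher and 5.13% lower. Of 9 neuroectoderm genes tested, 3 were lower, among them Nes, the intermediate filament nestin, with 488, 1273 and 494 normalised reads in Nat1+/- cells and 4615 and 2904 in WT cells (-2.44 ± 0.40, adjusted p = 0.0148). Pax6 fell by 1.91 ± 0.42 and Gap43 by 1.65 ± 0.33 on the log2 scale. Of 12 mesendoderm and mesoderm genes, 2 were lower. T, the brachyury factor of the primitive streak, had 6.51, 20.3 and 4.20 reads in Nat1+/- cells and 123 and 108 in WT cells (-3.63 ± 0.78, adjusted p = 0.0262), and Tbx20 fell by 2.06 ± 0.49 on the log2 scale. Of 13 trophoblast and simple epithelial genes, the 3 lower ones were the keratins Krt8 (-2.91 ± 0.55), Krt18 (-2.72 ± 0.50) and Krt19 (-2.99 ± 0.60). Krt8 had 327, 1558 and 372 reads in Nat1+/- cells and 4308 and 4322 in WT cells, with B4 the clone nearest to WT. The median of the trophoblast and epithelial list was 0.04, with 7 members above 0 and 6 below. Among 14 primitive endoderm genes, with a median of 0.48 that turned to -0.12 with no filter on low values, -0.13 with a mean of at least 50 and -0.02 without C1, the calls divided, with Lamc1 (0.93 ± 0.17) and Gata4 (2.12 ± 0.47) higher and Sparc (-0.80 ± 0.20) lower.

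**Figure D2:**
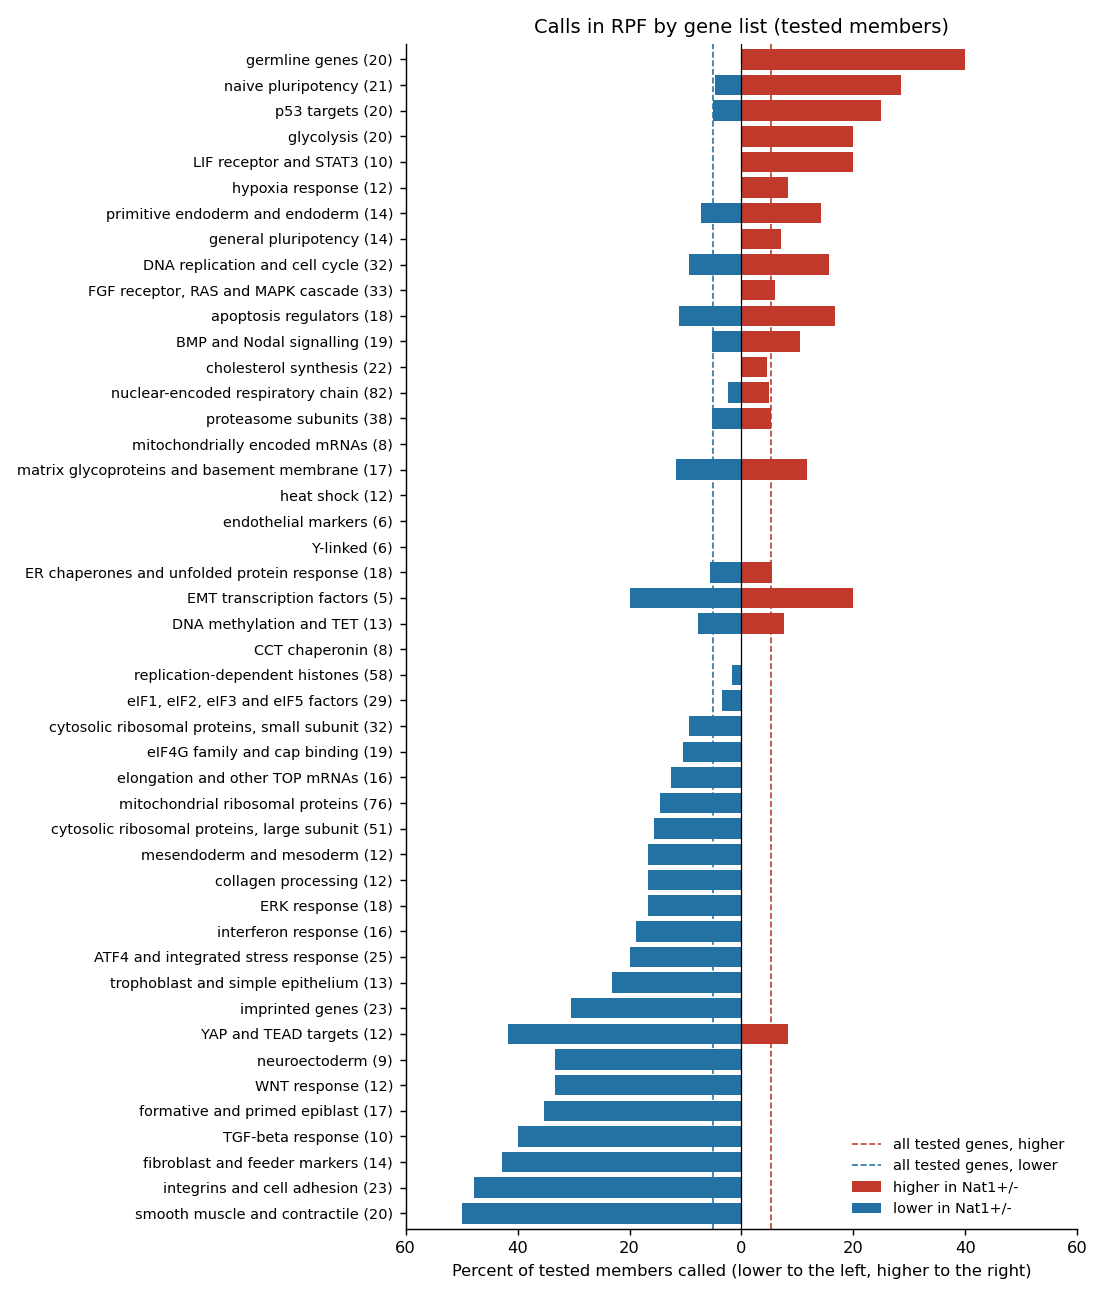
Percent of tested members of each gene list called higher (red, right) or lower (blue, left) in Nat1+/- RPF libraries, for lists with at least 5 tested members (number in brackets), sorted by the difference; dashed lines are the shares over all tested genes, 5.35% higher and 5.13% lower. Germline genes head the plot with 40% higher and contractile genes end it with 50% lower.

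Of 20 smooth muscle and contractile genes tested, 10 were lower and 0 higher, against 5.13% of all genes, and a median of -0.99. They encode the actin cytoskeleton of contractile cells and are known targets of serum response factor (SRF). Acta2, smooth muscle actin, had 26.0, 164 and 33.6 normalised reads in Nat1+/- cells, against 928 and 2976 in WT cells (-4.95 ± 0.84, adjusted p = 0.0157). Tagln, transgelin or SM22, had 121, 763 and 168 in Nat1+/- cells and 5906 and 5593 in WT cells (-4.52 ± 0.66, adjusted p = 0.0105). B4 was the highest clone for both genes and still lay several-fold below the lower WT culture. Cnn2, a calponin, varied less, with 412, 639 and 384 in Nat1+/- cells and 2351 and 2020 in WT cells (-2.22 ± 0.23, adjusted p = 0.00452). The tropomyosins Tpm1 (-2.16 ± 0.26), Tpm2 (-1.18 ± 0.15) and Tpm4 (-1.55 ± 0.20), the myosin light chain Myl9 (-3.27 ± 0.67), the calponin Cnn1 (-2.29 ± 0.54), caldesmon Cald1 (-1.49 ± 0.32) and smoothelin Smtn (-0.79 ± 0.17) were lower too. The other 10 tested members were not called, among them non-muscle myosin Myh9 (0.57 ± 0.35), filamin Flna (0.83 ± 0.29), vinculin Vcl (-0.10 ± 0.27) and alpha-actinin Actn1 (0.04 ± 0.20). Total RNA called 9 of the 20 members lower, against 5.41% of all genes tested in total RNA. Without WTex2 the list had 2 footprint calls and without WTex1 0, with medians of -0.86 and -1.19.

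The CArG box that SRF binds, CC and GG around 6 bases that are each A or T, was present in 1.63% of all promoter windows on either strand. Of the 9 called contractile genes with a window, 2 held it, as did 4 of all 18 listed members with a window. No letters of this kind were found in the windows of Acta2, Cnn1, Tpm1, Tpm2, Tpm4, Cald1 or Smtn, which are short. The matches, shown because they place the element in members called lower, lay at chr10:79988497-79988600 for Cnn2 and chr2:156775256-156775359 for Myl9, both on the plus strand, with the CArG box in capitals:
Cnn2: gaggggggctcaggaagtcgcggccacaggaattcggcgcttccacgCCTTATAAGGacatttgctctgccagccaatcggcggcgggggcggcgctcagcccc
Myl9: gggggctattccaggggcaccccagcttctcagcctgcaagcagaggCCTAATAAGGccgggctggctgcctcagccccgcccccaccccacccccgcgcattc

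Fibroblast and feeder markers moved with these genes. Of the 21 listed, 14 were tested and 6 were lower, against 5.13% of all genes, with a median of -1.49. The median was -0.43 with a mean of at least 50 reads, and -0.87 with 3 calls without genes on chromosomes 1 and 11. Their summed footprints were 2202, 4571 and 2948 normalised reads in Nat1+/- cells, against 5151 and 10905 in WT cells, so that B4 came close to WTex1. Col1a1, a fibrillar collagen chain, had 77.0, 707 and 93.4 in Nat1+/- cells and 1911 and 5922 in WT cells (-4.28 ± 0.84, adjusted p = 0.0231), and Col1a2 fell by 4.16 ± 0.90 on the log2 scale. Postn, periostin, read 0, 3.04 and 0 in Nat1+/- cells and 17.9 and 61.0 in WT cells (-4.42 ± 0.94, adjusted p = 0.0255). Its Nat1+/- values cannot be told from 0, so the size of its difference depends on the 1 added to each value. Of these 5 libraries, mainly the WT ones brought Postn toward the filter. Dpt was the 1 listed marker at 0 in every Nat1+/- library, and 2 listed markers were at 0 in both WT libraries. Other markers did not move this way. Thy1 had 259, 328 and 219 in Nat1+/- cells and 162 and 121 in WT cells (0.91 ± 0.38, adjusted p = 0.141), Mmp2 differed by 0.13 ± 0.40 and Col5a1 by 0.00 ± 0.38. In bulk libraries fewer cells of a type and less RNA per cell cannot be told apart, and the part of such cells in the contractile and matrix results was not tested. Of 9 endothelial markers 6 were tested with 0 limma calls (Eng had the smallest adjusted p, 0.0596), and of 9 macrophage markers 3 were tested with Cd68 higher (1.01 ± 0.22).

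Targets of YAP and TEAD, the transcription factors that respond to cell spreading and tension, had a median of -1.47. Of 12 tested, 5 were lower, against 5.13% of all genes, and Nuak2 (1.18 ± 0.18) was the 1 higher, against 5.35%. Ctgf, a secreted matrix-associated protein and a standard YAP target, had 321, 1126 and 820 normalised reads in Nat1+/- cells and 3714 and 3582 in WT cells (-2.45 ± 0.50, adjusted p = 0.0238). Amotl2, an angiomotin that restrains YAP, fell by 1.41 ± 0.16 and the receptor kinase Axl by 1.97 ± 0.35 on the log2 scale. Of 10 genes of the TGF-beta response 4 were lower, against 5.13% of all genes. They were the ligand Tgfb2 (-3.04 ± 0.73), the adaptor Tgfb1i1 (-3.45 ± 0.44), the matrix protein Thbs1 (-3.13 ± 0.81) and the activin subunit Inhba (-3.85 ± 1.04). Thbs1 had 130, 1147 and 271 reads in Nat1+/- cells and 1992 and 4541 in WT cells, again with B4 the highest clone.

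Of 23 integrin and cell adhesion genes, 11 were lower, against 5.13% of all genes, and 0 higher. All 3 Nat1+/- values lay below both WT values for 18 of them, against 28.1% of all genes. Lgals1, the secreted lectin galectin-1, had 867, 1102 and 850 normalised reads in Nat1+/- cells and 2515 and 2762 in WT cells (-1.50 ± 0.16, adjusted p = 0.00495). Vim, the intermediate filament vimentin, had 2672, 2240 and 2055 in Nat1+/- cells and 5651 and 5778 in WT cells (-1.31 ± 0.15, adjusted p = 0.00642). Integrin alpha 3 (Itga3) fell by 1.32 ± 0.18 on the log2 scale, and the phospholipid-binding annexin Anxa1 had a difference of -4.27 ± 0.69. Matrix glycoproteins divided, with Fbln1 (1.43 ± 0.32) and Fn1 higher and Tnc (-4.83 ± 1.15) and Mfap2 (-2.41 ± 0.55) lower among 17 tested. Fn1, fibronectin, had 95663, 54023 and 54006 reads in Nat1+/- cells and 12116 and 25424 in WT cells (adjusted p = 0.0484). Its direction was opposite to that of Col1a1 and Col1a2. Its call was lost when the chromosome medians were subtracted (1.52, adjusted p = 0.114).

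The lowest values also included genes outside these groups. Car2, a carbonic anhydrase, had 230, 815 and 350 normalised reads in Nat1+/- cells and 7521 and 3628 in WT cells (-3.69 ± 0.56, adjusted p = 0.0128). The serine protease Prss23 fell by 4.28 ± 0.90 and the myosin chaperone Unc45b by 3.55 ± 0.48 on the log2 scale. Psg29 belongs to the pregnancy-specific glycoproteins, whose genes are so alike that counting can divide reads among them, and had 1.08, 1.01 and 0 in Nat1+/- cells and 158 and 1414 in WT cells. That is 2 reads in the 3 Nat1+/- libraries together and 1663 in the WT libraries, which after division by the summed size factors is a ratio of WT over Nat1+/- of 1026 with an exact 95% interval of 284 to 8478 for counting error only. The WT cultures differed several-fold from each other for this gene.

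Of 23 imprinted genes, expressed from 1 parental allele, 7 were lower, against 5.13% of all genes, and 0 higher, with a median of -0.70. Igf2, the paternally expressed insulin-like growth factor 2, had 17.3, 53.7 and 42.0 normalised reads in Nat1+/- cells, against 759 and 1911 in WT cells (-5.10 ± 0.54, adjusted p = 0.00452). Its total RNA was lower to a like degree, at 14.7, 46.1 and 32.8 in Nat1+/- cells and 1098 and 2187 in WT cells. Nnat, neuronatin, had 110, 205 and 174 footprints in Nat1+/- cells and 1077 and 844 in WT cells (-2.59 ± 0.27, adjusted p = 0.00452). Magel2, a ubiquitin ligase regulator of the Prader-Willi region, fell by 2.98 ± 0.58 and the retrotransposon-derived Peg10 by 0.96 ± 0.17 on the log2 scale. The clones of each of these genes lay below both WT cultures. Calls were left for 2 genes without A7, and the list's median then was -0.54. As for all genes, the calls rested on WTex1 too.

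Footprints of ribosomal protein genes lay below WT as a set, while their RNA did not. Their mRNAs, with those of elongation factors, carry a 5′ terminal oligopyrimidine (TOP) tract and are known to be translated as a group under the control of mTOR. Of 51 large-subunit genes, 48 lay below 0 with a median of -0.78 and 8 were called lower, and of 32 small-subunit genes 32 lay below 0 with a median of -0.63 and 3 were called lower. Together, 73 of the 83 had all 3 Nat1+/- values below both WT values, against 28.1% of all genes, while 13.3% of them passed the test as lower, against 5.13% of all genes. In total RNA, 65 of the 83 lay above 0, with a median of 0.19. Rpl22l1, a paralog of Rpl22, had 1578, 1554 and 1628 footprints in Nat1+/- cells and 4519 and 3540 in WT cells (-1.33 ± 0.21, adjusted p = 0.0132). Its total RNA was 4064, 3363 and 3506 in Nat1+/- cells and 4139 and 3466 in WT cells, which overlapped. Rps23 had 1671, 1694 and 1889 footprints in Nat1+/- cells and 6125 and 5442 in WT cells (-1.72 ± 0.46, adjusted p = 0.045). Rpl27 fell by 1.46 ± 0.36, Rps27a by 1.04 ± 0.24 and Rpl12 by 0.94 ± 0.22 on the log2 scale. Ribosomal protein genes have many processed pseudogenes, and the sources used here do not say how reads mapping to several places were handled.

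**Figure D3:**
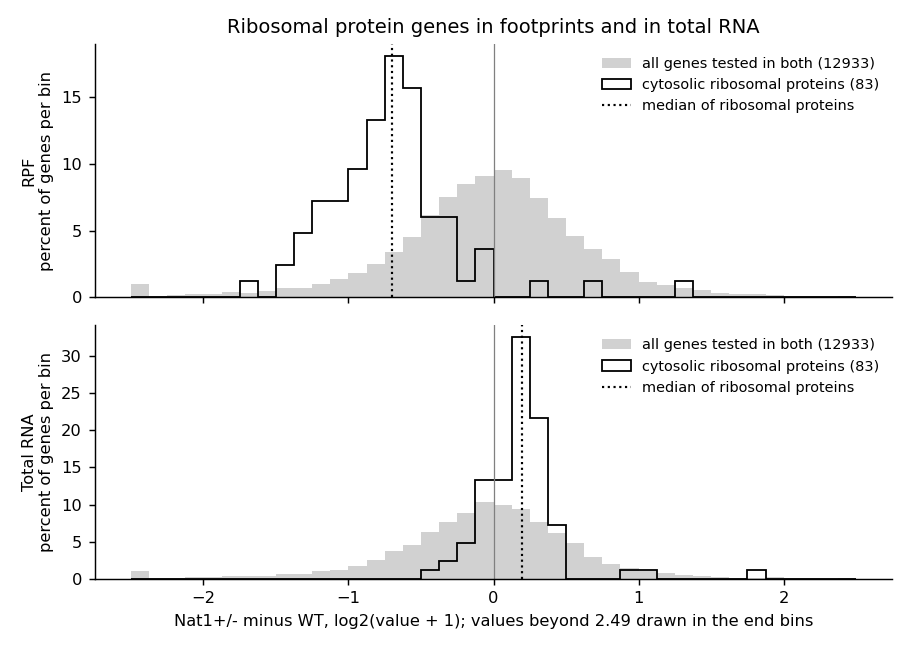
Histograms of the difference between Nat1+/- and WT, in log2(value + 1), for footprints (upper) and total RNA (lower); grey shows all genes tested in both assays and the black outline the 83 cytosolic ribosomal protein genes, as a percent of each set per bin, with a dotted line at the median of the ribosomal proteins. The outline sits left of 0 in footprints (median -0.70) and slightly right of 0 in total RNA (median 0.19).

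The share of all normalised footprints on these 83 genes was 3.17%, 3.00% and 3.17% in A7, B4 and C1, against 5.46% and 4.69% in WTex1 and WTex2. The share of total RNA was 6.15%, 5.70% and 5.85% in Nat1+/- cells and 5.26% and 5.78% in WT cells. In the Nat1-/- cultures the footprint share was 6.61%, 4.64% and 3.19% in B12, B2 and C3, so that C3 lay at the level of the Nat1+/- clones and B12 above both WT cultures. The shares were thus not ordered by genotype. Among 16 elongation and other TOP mRNAs, 15 lay below 0 with a median of -0.60. Of the 16, 2 were called lower, against 5.13% of all genes. They were Npm1 and Vim, which is given among the adhesion genes too. Total RNA called 1 of the 16 lower, against 5.41% of all genes tested in total RNA, with a median of 0.12. Npm1, the nucleolar chaperone nucleophosmin, had 37167, 43367 and 41707 footprints in Nat1+/- cells and 81041 and 80245 in WT cells (-0.99 ± 0.22, adjusted p = 0.0278), with a total RNA difference of -0.13. Of 76 mitochondrial ribosomal protein genes 11 were lower, against 5.13% of all genes, with a median of -0.37. Mrpl10 (-0.78 ± 0.14) and Mrpl40 (-0.73 ± 0.17) had the smallest adjusted p among them. Of 29 factors of the eIF1, eIF2, eIF3 and eIF5 groups, 1 was lower (Eif1, -0.76 ± 0.20), a smaller share than the 5.13% of all genes. Eif1 lies on chromosome 11 and differed by -0.41 (adjusted p = 0.123) with the chromosome medians subtracted. Besides Eif4g2, 1 of 19 eIF4G and cap-binding genes was lower, the eIF4E-binding repressor Eif4ebp1 (-0.80 ± 0.17).

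**Figure D4:**
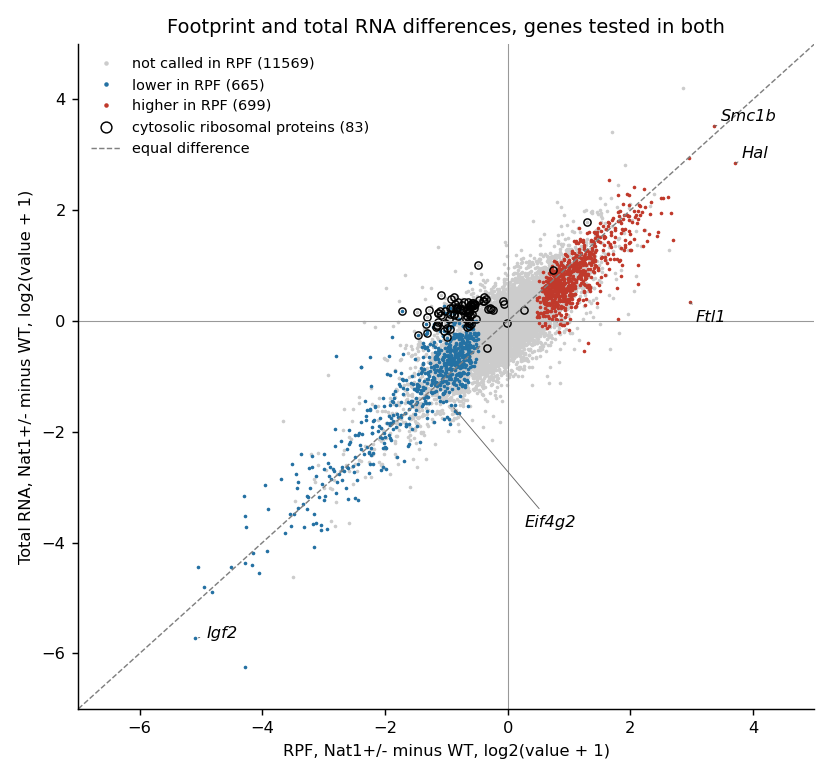
Difference between Nat1+/- and WT in footprints (x axis) and in total RNA (y axis), log2(value + 1), for genes tested in both; red and blue points were called higher (699) and lower (665) in footprints, grey points were not called, black circles are cytosolic ribosomal proteins and the dashed line marks equal differences. Most called genes lie near the dashed line, while ribosomal proteins lie left of it and Ftl1 (2.97 in footprints, 0.33 in total RNA) right of it.

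Most called genes differed in the same direction in total RNA. Of 699 higher genes also tested in total RNA, 685 had a difference of the same sign and 385 (55.1%) were called higher there, against 4.6% of all genes tested in total RNA. Of 665 lower genes, 651 had the same sign and 361 (54.3%) were called lower, against 5.41%. Read the other way, 61.1% of the 630 genes higher in total RNA and 49.6% of the 728 lower ones were called in footprints. No gene was called in opposite directions. Over all genes tested in both assays, called or not, the differences correlated at r = 0.854 and rho = 0.790. The libraries came from the same cultures, and genes are not independent replicates. The share of all these genes with the same sign was not counted. Total RNA libraries of the Nat1+/- clones were shallower, at 13.2 to 14.8 M reads against 33.6 and 42.6 M in WT cells, and the part of this in the comparison was not tested. Translational efficiency (TE), the difference between footprint and total RNA changes, was tested as an interaction, and 0 of 12933 genes were called by limma (663 with an unadjusted p below 0.05). With a term for each culture, which pairs the libraries made from the same cells, 90 genes had higher TE (0.696%) and 56 lower TE (0.433%). Ribosomal proteins supplied 12 of the 56 lower genes (21.4%), which is 14.5% of the 83 genes. They include Rpl22l1 (TE difference -1.27, adjusted p = 0.029 with the culture term), Rpl12 (-1.06, 0.0443) and Rps27a (-0.86, 0.029). Tpm1 (-0.62) and Tpm2 (-0.70) had lower TE as well, beyond the difference in their RNA.

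Ferritin light chain was called in footprints and not in total RNA. Ftl1, a subunit of the iron storage protein whose mRNA is known to be held back by iron regulatory proteins when iron is scarce, had 3957, 1271 and 2066 normalised footprints in Nat1+/- cells, against 220 and 351 in WT cells (2.97 ± 0.62, adjusted p = 0.0246). Its total RNA was 13957, 9681 and 13818 in Nat1+/- cells and 8830 and 10801 in WT cells (0.33, adjusted p = 0.233). The footprint groups were well apart and the RNA groups overlapped, and the TE difference of 2.63 was called with the culture term (adjusted p = 0.0486). The heavy chain Fth1, named after its values were seen, had 3108, 1787 and 1737 footprints in Nat1+/- cells and 823 and 889 in WT cells (1.31 ± 0.28, adjusted p = 0.0249). Its total RNA differed by -0.40 and its TE difference of 1.71 was not called (adjusted p = 0.0756 with the culture term). Both genes have close copies in the genome.

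Of 20 glycolytic enzymes, 18 lay above 0 with a median of 0.45, and 15 had all 3 Nat1+/- values above both WT values, against 27.3% of all genes. Of the 20, 4 were called higher, against 5.35% of all genes. Hk1, the hexokinase that starts glycolysis, had 4332, 4544 and 4279 normalised reads in Nat1+/- cells and 1094 and 1413 in WT cells (1.82 ± 0.26, adjusted p = 0.00999). Ldhb, a lactate dehydrogenase subunit, had 18854, 19115 and 14385 in Nat1+/- cells and 5001 and 6172 in WT cells (1.64 ± 0.34, adjusted p = 0.025). Aldoa (0.80 ± 0.18) and Pgk1 (0.84 ± 0.22) were the others. Total RNA called 5 of the 20 higher, against 4.6% of all genes tested in total RNA. Among nuclear genes of the respiratory chain 4 of 82 were higher, a share near the 5.35% of all genes. Of the same 82, 2 were lower, a smaller share than the 5.13% of all genes. The 8 mitochondrially encoded mRNAs tested all lay below 0, with a median of -1.39 and 0 limma calls (mt-Nd2 had the smallest adjusted p, 0.0662). Their median difference from the WT mean was -2.22, -0.51 and -1.37 in A7, B4 and C1, so the clones differed widely.

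Among 20 p53 targets, 5 were higher, against 5.35% of all genes, and 1 lower, a share near the 5.13% of all genes. Their median was 0.49. Trp53inp1, a p53-induced cofactor, had 2523, 2861 and 2558 normalised reads in Nat1+/- cells and 1043 and 1216 in WT cells (1.23 ± 0.18, adjusted p = 0.0103). The cell cycle inhibitor Cdkn1a, p21, had 1341, 1271 and 1337 in Nat1+/- cells and 666 and 800 in WT cells (0.85 ± 0.17, adjusted p = 0.0223), and the receptor Eda2r rose by 1.14 ± 0.22. The growth arrest gene Gadd45a fell by 1.01 ± 0.19 on the log2 scale. Of 18 apoptosis regulators 3 were higher, against 5.35% of all genes, among them the pro-apoptotic Bbc3 (0.80 ± 0.18) and Bmf (1.36 ± 0.34). The anti-apoptotic Bcl2l1 (-1.24 ± 0.26) and the pro-apoptotic Bcl2l11 (-0.85 ± 0.21) were the 2 lower, against 5.13%. In the ATF4 stress response 5 of 25 genes were lower, against 5.13% of all genes, and 0 were higher. Among the lower ones, Chac1 lay at -1.47 ± 0.28, Atf3 at -1.80 ± 0.36 and Mthfd2 at -0.94 ± 0.19.

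Signalling lists varied in their share of calls, where all genes had 5.35% higher and 5.13% lower. Of 33 genes of FGF receptors, RAS and the MAP kinase cascade, 2 were higher, Fgfr4 (1.40 ± 0.33) and Map3k4 (0.66 ± 0.17), a share close to that of all genes, while 3 of 18 ERK response genes were lower. Among those, Phlda1 had 44.5, 74.9 and 71.4 normalised reads in Nat1+/- cells and 336 and 267 in WT cells (-2.26 ± 0.43, adjusted p = 0.0205), and the ERK phosphatase Dusp5 fell by 1.32 ± 0.26 on the log2 scale. Of 12 WNT response genes 4 were lower. Notum, a secreted WNT inhibitor, had 129, 171 and 197 in Nat1+/- cells and 550 and 707 in WT cells (-1.93 ± 0.25, adjusted p = 0.0082), and the WNT target Sp5 fell by 3.07 ± 0.50 on the log2 scale. In BMP and Nodal signalling the ligand Bmp7 (1.91 ± 0.35) and the receptor Acvr1b (0.90 ± 0.22) were higher and the BMP target Id2 (-2.12 ± 0.42) was lower, of 19. Of 16 interferon response genes, 3 were lower, with Ifitm3 at -1.56 ± 0.22 and H2-K1 at -1.21 ± 0.25. Of 32 replication and cell cycle genes, 5 were higher, led by the helicase subunit Mcm6 (1.15 ± 0.16), and 3 lower, among them the cyclins Ccne1 (-0.89 ± 0.22) and Ccne2 (-1.18 ± 0.24).

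Genes of 2 chromosomes were shifted as a whole. On chromosome 1 the median log2 difference over 721 tested genes was 0.36, with 144 called higher (20% of them) and 8 lower. On chromosome 11 the median over 1091 genes was -0.34, with 170 called lower (15.6%) and 17 higher. Medians of the other 18 chromosomes, the Y excluded, ranged between -0.11 and 0.08. Chromosome 1 held 5.54% of tested genes and 20.7% of the higher calls, and chromosome 11 held 8.38% of tested genes and 25.3% of the lower calls.

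The size of the shift differed between clones. For chromosome 1 the median difference from the WT mean was 0.34, 0.58 and 0.20 in A7, B4 and C1. For chromosome 11 it was -0.50, -0.15 and -0.37. The clone with the largest rise on chromosome 1, B4, had the smallest fall on chromosome 11. Total RNA of the clones gave 0.27, 0.55 and 0.19 for chromosome 1 and -0.54, -0.17 and -0.42 for chromosome 11. In 4 equal blocks of the gene order, the group difference was 0.28 to 0.49 on chromosome 1 and -0.36 to -0.32 on chromosome 11. Within C1 alone, the blocks of chromosome 1 gave 0.04, 0.20, 0.39 and 0.18. Only the third block lay above the highest median of another chromosome in C1, that of chromosome 14. Shifts in a single clone were -0.22 for chromosome 6 in A7 and 0.20 for chromosome 14 in C1, which equals that clone's median on chromosome 1 to 2 decimals. The Nat1-/- cultures B12, B2 and C3 had medians of 0.37, 0.13 and 0.05 for chromosome 1 and -0.37, -0.41 and -0.40 for chromosome 11. DNA copy number was not measured, and a change in it was not tested. With genes of both chromosomes left out, 446 genes were higher and 407 lower. With each chromosome's median subtracted, 575 were higher and 522 lower, 515 and 476 of them called the same way before. That subtraction ended the call of 23 of the 143 named genes, including Lamc1 and Fn1 on chromosome 1 and Sparc, Smtn, Spred2, Eif1, Npm1, Rpl23a, Rpl27, Rps27a and Mrpl10 on chromosome 11. In the same fit the germline list had 8 calls and the contractile list 10, with Smtn no longer called and Csrp1, a LIM domain protein, called at -0.96 (adjusted p = 0.0367).

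**Figure D5:**
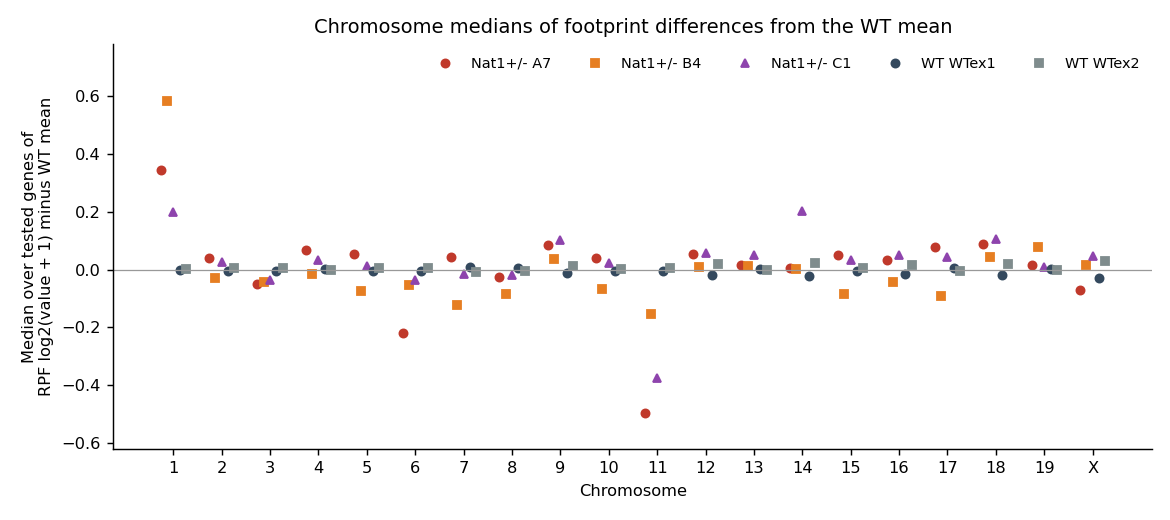
Median over the tested genes of each chromosome of the difference in footprints from the WT mean, in log2(value + 1), for the 3 Nat1+/- clones (left of each cluster) and the 2 WT cultures (right). Chromosome 1 lies above 0 and chromosome 11 below 0 in all 3 clones, to different degrees (0.34, 0.58 and 0.20, and -0.50, -0.15 and -0.37, in A7, B4 and C1), and the WT cultures stay near 0.

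The clones also differed from one another across genes. At least 2-fold above both WT cultures lay 548, 617 and 445 tested genes in A7, B4 and C1, and at least 2-fold below both lay 1098, 622 and 713. The WT cultures differed from each other by at least 2-fold for 340 genes. Among the 673 genes called lower, B4 was the clone nearest to WT for 54.2%, C1 for 33.1% and A7 for 12.9%. Among the 701 called higher, C1 was nearest for 42.2%, B4 for 42.1% and A7 for 15.7%.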

How the data were processed

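Each of 8 cultures gave an RPF and a total RNA library; a kit for ribosome profiling was used, per the labels' protocols. Values are deposited as a signal, read counts over 1 size factor per library; the submitters' processing notes name TopHat2 2.1.0, Bowtie2 2.2.8, HTSeq 0.6.1, DESeq2, cutadapt 1.9.1 and bcl2fastq 2.17, and the builds mm10 and GRCm38.p4. Multiplying by that factor gave whole reads for 100% of values (tolerance 0.001); recovered RPF depth was 17.5 to 23.8 M reads over 8 libraries. Scaling sets the median gene of each library alike, which hides any change common to most genes. Of the names, 27 looked like dates, 2 were repeated and 0 value columns went unmatched. A RefSeq table (GRCm38.p6) gave a chromosome for 99.4% of tested genes and the promoter sequences.

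For each assay, limma 3.58.1 in R 4.3.3 (lmFit, eBayes with trend) fitted 3 genotype means to log2(value + 1) over 8 libraries, keeping genes that averaged 10 or more; TE was the interaction over 16 libraries. Footprint and RNA libraries of a culture deviated together (r = 0.384 to 0.821, best match for 8 of 8), so the culture term pairs them. A call is a Benjamini-Hochberg adjusted p below 0.05 in either direction. Alternatives included count models on the recovered reads (DESeq2 1.42.0, edgeR 4.0.16), other filters, pseudocounts and scalings, and leaving out each culture. Fits were tested on simulated data with known changes.

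The comparison and the 48 gene lists were chosen with earlier results of these data known. Named genes are Eif4g2, the 10 highest and 10 lowest calls among genes averaging 50 or more whose groups do not overlap (predicted genes passed over), up to 4 called members with the smallest adjusted p per list, any contractile or fibroblast member, and the smallest p where a list had no call. Nothing says whether the replicates came from separate experiments, so p-values measure the spread between these cultures. Counting intervals cover counting error only.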

Additional observations from a re-analysis of the deposited data

How the results depend on the processing

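None of the 143 called named genes changed sign in any alternative run, an outcome fixed by non-overlap where 1 culture was left out. List medians near 0 did, as for trophoblast genes (0.04, and -1.07 with no filter) and general pluripotency genes (-0.04, and 0.01 with the replicate block). Scaling footprints to equal library sums called 617 higher and 734 lower genes, so that more genes were lower than higher. Against 701 higher and 673 lower genes in footprints and 636 higher and 747 lower in total RNA, a fit on the 5 Nat1+/- and WT libraries alone called 1333 and 1305 in footprints and 1313 and 1455 in total RNA. DESeq2 on the recovered reads called 1305 and 1216 in footprints and 1209 and 1340 in total RNA. Without a trend in eBayes the counts were 225 and 256 in footprints and 232 and 317 in total RNA. Leaving out 1 culture at a time gave 0 to 554 higher and 0 to 643 lower in footprints, and 0 to 414 higher and 0 to 645 lower in total RNA. With genes of chromosomes 1 and 11 left out, an alternative chosen after seeing the data, 446 and 407 remained in footprints. With no filter on low values, 417 genes were higher in total RNA. Scaling to equal library sums called 452 higher and 1155 lower in total RNA, so that 28.1% of calls were higher against 46.0%, and moved the median of all genes to -0.11. TE had 0 calls in either direction without pairing and 90 higher and 56 lower with the culture term, which is a replicate block within genotype. With the replicate number as a block across genotypes, 90 higher and 72 lower genes were called in footprints and 102 and 88 in total RNA. Footprint deviations of same-numbered cultures correlated at r = -0.13 to 0.28. These values cannot show whether same-numbered cultures shared an experiment. Cause was not tested for any of these shifts. edgeR called 647 higher and 727 lower genes in footprints. With 3 and 2 cultures, an exact permutation test on a single gene could not go below 0.2, and genes near 3 reads, or 2.33 to 3.42 normalised reads, could not be told from 0.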
